A study of Mus musculus with 2 samples.

Results

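The genes of the Wnt ligands, of the enzyme and carrier that prepare these ligands for release, and of the Wnt receptors were examined in the mandibular prominence, the paired facial swelling that forms the lower jaw. The members were taken by gene symbol: every Wnt and Frizzled gene, the coreceptor genes Lrp5 and Lrp6, the receptor genes Ror1, Ror2, Ryk and Ptk7, the acyltransferase gene Porcn and the carrier gene Wls. This gave 37 of the 30723 genes in the deposited tables, namely 19 Wnt ligands, 10 Frizzled receptors, 6 other receptors and 2 export genes, with 69 annotated transcripts. RNA sequencing was done on 2 libraries, 1 per group, each from the RNA of 10 pooled embryos. The mutant group carried floxed alleles of Kif3a, a kinesin-2 motor subunit needed for cilia, and Wnt1-Cre, written Kif3a f/f ; Wnt1-Cre. The other library is labelled control, and the labels do not say whether it carried Cre or a floxed allele. Both groups were of mixed CD1 background and labelled E11.5. By the naming of the deposited tables the mutant was of day 11, and the control is named CD1 with no genotype.

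Wnt proteins are secreted lipid-modified signals. Porcn attaches the lipid in the endoplasmic reticulum, and Wls carries the lipidated ligand to the cell surface. There the ligand binds the extracellular domain of a Frizzled receptor. With Lrp5 or Lrp6 as partner this stabilises beta-catenin, and with Ror1, Ror2, Ryk or Ptk7 it feeds planar cell polarity and other routes that do not need beta-catenin. In the embryonic face, Wnt3, Wnt4, Wnt6, Wnt7b, Wnt9b and Wnt10a are known mainly from the surface epithelium, and Wnt5a and Wnt11 from the mesenchyme, most of which derives from the neural crest. Wnt1-Cre is active in the neural crest and in what derives from it, so epithelium, muscle precursors, vessels and blood keep the floxed gene.

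The ligands share the site at which Porcn acts, and the coding bases of that site are shown for the 7 most abundant ligands and for Wnt2b. The 7 use serine codons that begin with TC, and Wnt2b uses AGT. A run of 24 coding bases was taken from the GENCODE M21 transcripts on GRCm38, by the pattern cysteine, any residue, glycine, any residue, serine, glycine, serine, cysteine. All 19 ligands held the pattern. Capitals mark the codon of the serine that receives the lipid.
Wnt6 (chr1:74784172-74784195, + strand, coding exon): tgccatgggcttTCGggttcctgc
Wnt5a (chr14:28522515-28522538, + strand, coding exon): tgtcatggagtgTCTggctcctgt
Wnt7b (chr15:85537812-85537835, - strand, coding exon): tgtcacggtgtgTCAggctcctgt
Wnt5b (chr6:119433800-119433823, - strand, coding exon): tgtcacggagtcTCCgggtcctgc
Wnt9b (chr11:103731167-103731190, - strand, coding exon): tgccatggtgtgTCAggctcctgt
Wnt4 (chr4:137296345-137296368, + strand, coding exon): tgtcacggggtgTCGggctcctgc
Wnt3 (chr11:103812314-103812337, + strand, coding exon): tgccacgggttgTCCggcagctgc
Wnt2b (chr3:104951220-104951243, - strand, coding exon): tgtcacggtgtgAGTggctcctgt
Wnt5a and Wnt5b share 19 of the 24 bases.

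The Frizzled receptors share a short motif behind the last membrane span, lysine-threonine, any 3 residues, tryptophan, which binds the cytoplasmic adaptor Dishevelled. All 10 receptors held it. Its 18 coding bases are shown for the 7 most abundant receptors, with the lysine, threonine and tryptophan codons in capitals.
Fzd2 (chr11:102606373-102606390, + strand, coding exon): AAGACActgcactcgTGG
Fzd7 (chr1:59484607-59484624, + strand, coding exon): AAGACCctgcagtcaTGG
Fzd1 (chr5:4755706-4755723, - strand, coding exon): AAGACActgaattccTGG
Fzd10 (chr5:128602796-128602813, + strand, coding exon): AAGACCctgcagtccTGG
Fzd3 (chr14:65212107-65212124, - strand, coding exon): AAGACAtgctttgaaTGG
Fzd4 (chr7:89408241-89408258, + strand, coding exon): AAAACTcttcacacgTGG
Fzd6 (chr15:39033949-39033966, + strand, coding exon): AAGACGtgcacagaaTGG
Fzd3 shares 14 of the 18 bases with Fzd6 and between 7 and 10 with each of the other printed receptors. Over whole coding sequences Fzd1 and Fzd2 were 82.7% identical at aligned bases, and Fzd1 and Fzd7 78.9%, with a longest identical run between these transcripts of 47 bases. Reads that fall in such runs could be credited to either gene, and no source used here gives the authors' rule for them.

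The libraries held about 24500000 fragments in the mutant and 24700000 in the control. Values are FPKM, fragments per kilobase of transcript scaled to the mapped fragments of the library, summed over the transcripts of a gene. With 1 library per group there is no replicate and no test, and each difference compares these libraries and not the genotypes in general. An interval in parentheses is a 95% exact (Clopper-Pearson) interval of the ratio from approximate fragment numbers, and covers counting error only. Sequencing run cannot be told apart from genotype, and neither can any difference in stage. Kif3a stood at 5.39 FPKM in the mutant and 11.46 in the control, a value for the whole transcript and not for the deleted part. The median log2 ratio of the 12259 genes with a mean of at least 1 FPKM was -0.13, mutant over control with 1 FPKM added to each value. Log2 ratios are therefore read against this median gene, since the sign of a small ratio depends on the scale: with each library divided by its summed FPKM, as in TPM, the median of all genes was 0.40. Counts at least 1.5-fold or 2-fold higher or lower use the same ratio with 1 FPKM added. The side of the median gene was read under 10 settings. Centring cannot change it. Among the members with a mean of at least 1 FPKM, a filter on estimate status changed no side, and other scales changed that of Wnt10b alone. For the rest, the side was in effect tried with other pseudocounts, without the length trend and with the most abundant transcript alone. For a gene with 1 annotated transcript the last of these leaves the value unchanged, so there it is no trial. In bulk tissue, fewer cells of a type and less RNA per cell cannot be told apart.

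**Figure D1:**
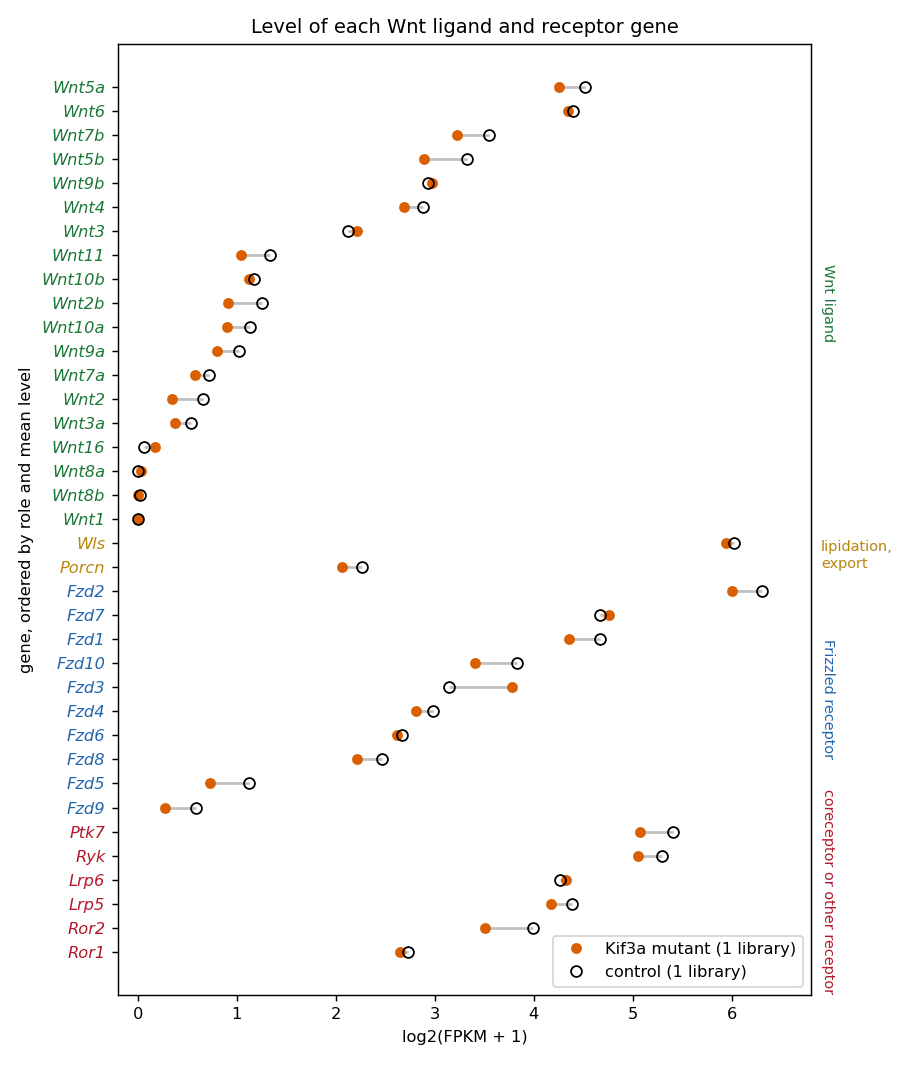
FPKM of each of the 37 genes on a log2(FPKM + 1) axis, with the Kif3a mutant library as a filled point and the control library as an open point, 1 library per group and no error bar. Genes run down the page by role and mean level. Most filled points lie a little left of the open ones, and Fzd3, at 12.7 FPKM in the mutant and 7.81 in the control, has the widest gap in the other direction.

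Of the 19 ligand genes, 11 had a mean of at least 1 FPKM, and Wnt5a and Wnt6 stood well above the others in both libraries. Wnt6 was the higher of the pair in the mutant and Wnt5a in the control. Wnt6, a ligand of surface epithelia which lies on chromosome 1 between positions 74771892 and 74785319, had 19.4 FPKM in the mutant and 20.04 in the control, a ratio of 0.967 (0.886 to 1.05). Wnt5a, which drives outgrowth of the jaw and limbs and lies on chromosome 14 between 28505473 and 28525515, had 18.1 FPKM in the mutant and 21.9 in the control. Its ratio was 0.829 (0.782 to 0.880). Wnt6 held 26.1% of the summed ligand FPKM in the mutant and 23.3% in the control, and Wnt5a held 24.5% in the mutant and 25.4% in the control. The sum over all 19 ligands was 74.2 FPKM in the mutant and 86.1 in the control.

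Wnt7b, known from lung and kidney epithelium, had 8.35 FPKM in the mutant and 10.7 in the control, and its ratio was 0.779 (0.707 to 0.858). Wnt5b, the closest relative of Wnt5a, had 6.42 FPKM in the mutant and 9.06 in the control. Its ratio was 0.708 (0.621 to 0.807), and its log2 ratio of -0.44 was the lowest of the 11 ligands, although Wnt2b and Wnt11, at lower levels, had lower plain ratios of 0.634 (0.476 to 0.841) and 0.696 (0.513 to 0.941). Wnt4, needed for kidney tubules, stood at 5.47 FPKM in the mutant and 6.36 in the control, with a log2 ratio of -0.19.

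The neighbouring genes Wnt9b and Wnt3 were above the median gene. They lie 24353 bases apart on chromosome 11, and loss of Wnt9b in mice leads to cleft lip. Wnt9b stood at 6.84 FPKM in the mutant and 6.61 in the control, a ratio of 1.03 (0.936 to 1.14). Wnt3 stood at 3.65 FPKM in the mutant and 3.35 in the control, a ratio of 1.09 (0.921 to 1.29). Both intervals include 1. Of the 11 ligands, Wnt3, Wnt9b and Wnt6 lay above the median gene under all 10 settings of the processing, and Wnt7b, Wnt4 and Wnt2b below it under all 10.

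The low ligands were measured on few fragments. Wnt11, a ligand of cell movement routes, stood at 1.06 FPKM in the mutant and 1.53 in the control, and Wnt10b, a ligand of bone and skin appendages, at 1.18 FPKM in the mutant and 1.26 in the control. Wnt2b, which acts with Wnt2 in the lung primordium, had 0.875 FPKM in the mutant and 1.38 in the control. Wnt10a, a gene of tooth and skin appendages, had 0.867 FPKM in the mutant and 1.19 in the control. Wnt2b and Wnt10a pass the minimum of 1 FPKM only through their control value. Among the ligands, the first under the minimum was Wnt9a, known from joints, at 0.735 FPKM in the mutant and 1.04 in the control.

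Wnt7a, a dorsal signal of the limb, had 0.489 FPKM in the mutant and 0.647 in the control. Wnt3a, a ligand of the tail bud, had 0.298 FPKM in the mutant and 0.452 in the control. Wnt2 had 0.267 FPKM in the mutant and 0.573 in the control, on about 15.6 fragments in the mutant and 30.1 in the control, and its ratio was 0.466 (0.236 to 0.887). Wnt16 had 0.126 FPKM in the mutant and 0.0479 in the control, on about 5.85 fragments in the mutant and 2.07 in the control, and its interval ran from 0.474 to 25.4. Wnt8a stood at 0.0225 FPKM in the mutant and is listed at 0 in the control, and Wnt8b is listed at 0 in the mutant with 0.0131 FPKM in the control. Wnt1, whose regulatory sequences drive the Cre line, is listed at 0 in both libraries.

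The 4 pairs of Wnt neighbours on a chromosome were uneven in level. Wnt6 and Wnt10a, 6699 bases apart on chromosome 1, differed in level in both libraries, at 19.4 and 0.867 FPKM in the mutant and 20.04 and 1.19 in the control. Wnt3a and Wnt9a, 16178 bases apart on chromosome 11, were both under 1 FPKM in the mutant. Wnt10b and Wnt1 lie 11706 bases apart on chromosome 15, and of these only Wnt10b gave a value above 0.

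The export genes showed small differences. Wls, the carrier, was among the most abundant members, at 60.3 FPKM in the mutant and 64.3 in the control. Its ratio was 0.939 (0.900 to 0.979), and its log2 ratio of -0.09 lay above the median gene under all 10 settings, by as little as 0.0049. Porcn stood at 3.19 FPKM in the mutant and 3.79 in the control, a ratio of 0.840 (0.680 to 1.04).

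Among the Frizzled genes, Fzd2, Fzd7 and Fzd1 were the most abundant, and these close relatives did not lie on the same side of the median gene. Fzd2, between positions 102604431 and 102608058 of chromosome 11, had 63.2 FPKM in the mutant and 78.3 in the control, a ratio of 0.806 (0.779 to 0.834). Fzd1 stood at 19.5 FPKM in the mutant and 24.5 in the control, a ratio of 0.799 (0.755 to 0.844). Fzd7 stood at 26.0 FPKM in the mutant and 24.5 in the control, a ratio of 1.06 (1.01 to 1.11). Fzd2 and Fzd1 lay below the median gene and Fzd7 above it under all 10 settings. The share of Fzd2 in the summed Frizzled FPKM was 43.1% in the mutant and 47.0% in the control, and that of Fzd7 was 17.7% in the mutant and 14.7% in the control.

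Fzd3, a polarity receptor known for axon guidance, had the highest log2 ratio of the 27 members with a mean of at least 1 FPKM, 0.64. It lies on chromosome 14 between 65192441 and 65262463 and had 12.7 FPKM in the mutant and 7.81 in the control, a ratio of 1.63 (1.55 to 1.71). Its single annotated transcript has 12742 bases, the longest among the members. The 64 genes over 12000 bases had a median log2 ratio of 0.62, and 57.8% of them passed 1.5-fold in that direction. With the trend of the ratio along transcript length removed, Fzd3 had a log2 ratio of 0.18. It lay above the median gene under all 10 settings, by 0.19 to 0.84. Fzd6, its closest relative, has a transcript of 4081 bases and stood at 5.14 FPKM in the mutant and 5.37 in the control, a log2 ratio of -0.05.

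Fzd10 stood at 9.60 FPKM in the mutant and 13.2 in the control, and its ratio of 0.728 (0.661 to 0.801) was the lowest of the 8 Frizzled genes with a mean of at least 1 FPKM. Fzd4, a receptor of retinal vessels, had 6.01 FPKM in the mutant and 6.89 in the control, and Fzd8 had 3.65 in the mutant and 4.53 in the control. Fzd10, Fzd4 and Fzd8 lay below the median gene under all 10 settings, Fzd4 by as little as 0.02. The remaining receptors were low: Fzd5 had 0.660 FPKM in the mutant and 1.17 in the control, on about 125 fragments in the mutant and 206 in the control. Fzd9 had 0.210 FPKM in the mutant and 0.501 in the control, on about 10.7 fragments in the mutant and 27.5 in the control. Both were lower in the mutant, with intervals of 0.447 to 0.706 for Fzd5 and 0.186 to 0.875 for Fzd9.

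**Figure D2:**
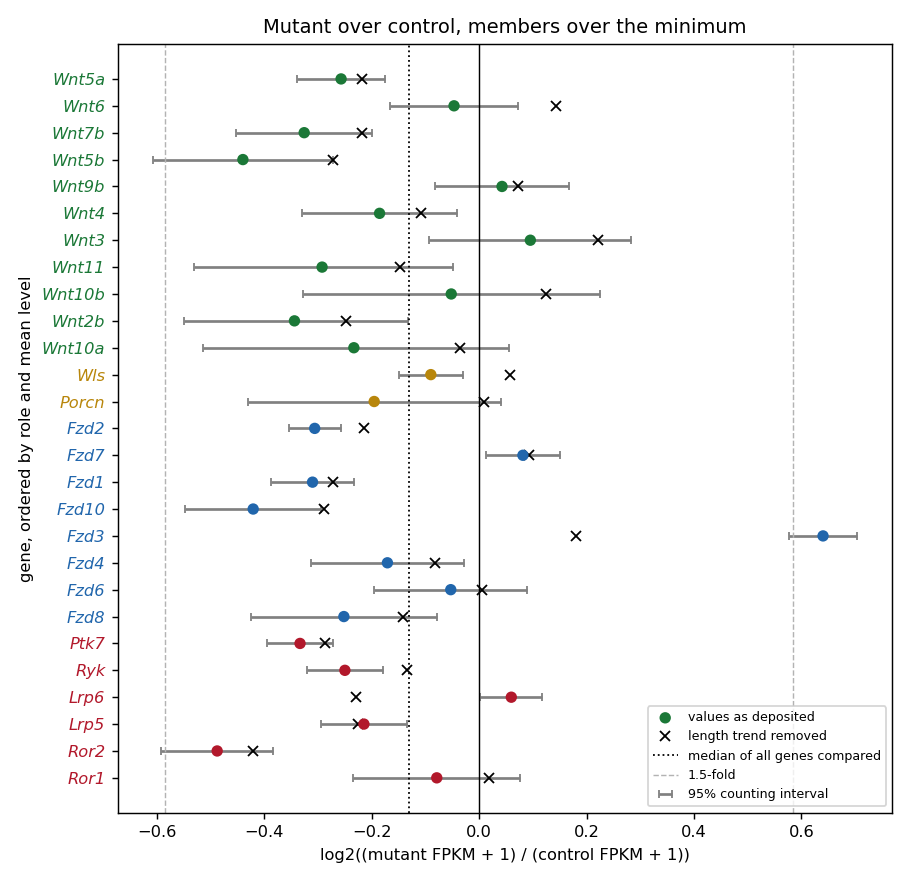
Log2 ratio, mutant over control, of the 27 members with a mean of at least 1 FPKM, as coloured points with 95% counting intervals as bars, 1 library per group. Crosses give the ratio with the length trend removed, the dotted line the median gene at -0.13 and the dashed lines 1.5-fold. Fzd3 is the only point past a dashed line, at 0.64, and its cross lies at 0.18.

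Ror2, the receptor that pairs with Wnt5a in polarity signalling, had the lowest log2 ratio of the 27 members, -0.49. On chromosome 13, between 53109317 and 53286109, it had 10.4 FPKM in the mutant and 15.0 in the control, a ratio of 0.694 (0.641 to 0.751). It lay below the median gene under all 10 settings, by 0.29 to 0.42. Its relative Ror1 differed less, at 5.28 FPKM in the mutant and 5.63 in the control, a ratio of 0.937 (0.825 to 1.06). Ror1 lay above the median gene under all 10 settings, by at most 0.06.

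Ptk7 and Ryk, receptors with inactive kinase domains, were the most abundant of this group. Ptk7 stood at 32.7 FPKM in the mutant and 41.5 in the control, a ratio of 0.789 (0.755 to 0.824). Ryk stood at 32.1 FPKM in the mutant and 38.4 in the control, a ratio of 0.837 (0.796 to 0.880). Both were below the median gene under all 10 settings.

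The beta-catenin coreceptors Lrp5 and Lrp6 had nearly equal levels. Lrp5 stood at 17.1 FPKM in the mutant and 20.0 in the control, a ratio of 0.855 (0.807 to 0.906). Lrp6 stood at 19.0 FPKM in the mutant and 18.2 in the control, a ratio of 1.04 (1.001 to 1.09). The side of the median gene on which each lay depended on the setting. Lrp6 has a transcript of 9366 bases, and its log2 ratio of 0.06 was -0.23 with the length trend removed. Lrp5 had -0.21 and -0.23 on the same scales.

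As a group the members differed little between the libraries. Of the 27 members with a mean of at least 1 FPKM, 1 was higher in the mutant by 1.5-fold or more, against 2.76% of all genes compared, and 0 were at least 1.5-fold lower, against 5.57%. At 2-fold the counts were 0 higher and 0 lower, against 0.767% and 1.36% of all genes. A log2 ratio below 0 was found for 22 of the 27, against 67.9% of all genes. The counting interval lay wholly below 1 for 16 of the 27, against 48.6%, and wholly above 1 for 3, against 18.8%. Relative to the median gene, 17 members were lower and 10 higher, and the median of the members was -0.21, against -0.13 for all genes. Without the length trend the median of the members was -0.13, against -0.01 for all genes.

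By role, 7 of 11 ligands, 5 of 8 Frizzled genes, 4 of 6 other receptors and 1 of 2 export genes lay below the median gene. Across the 10 settings, 11 of the 27 members stayed below the median gene, 7 stayed above it, and 9 changed side. This tally was not made over all genes, so these counts have no background share to be read against. The 9 that changed side were Wnt5a, Wnt5b, Wnt10a, Wnt10b, Wnt11, Fzd6, Lrp5, Lrp6 and Porcn. Wnt5a, Wnt5b, Wnt11, Fzd6 and Lrp5 changed side only with the most abundant transcript alone. Lrp6 and Porcn did so only with the length trend removed, and Wnt10b only under the 2 TPM-like scalings. Wnt10a, with 1 annotated transcript, did so only with a pseudocount of 5. Over all 37 members without a minimum, 29 had a lower value in the mutant, 7 a higher one, and 1, Wnt1, was 0 in both. Of all 30723 genes, 12148 had a lower value in the mutant, 7336 a higher one, and 11239 were 0 in both.

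**Figure D3:**
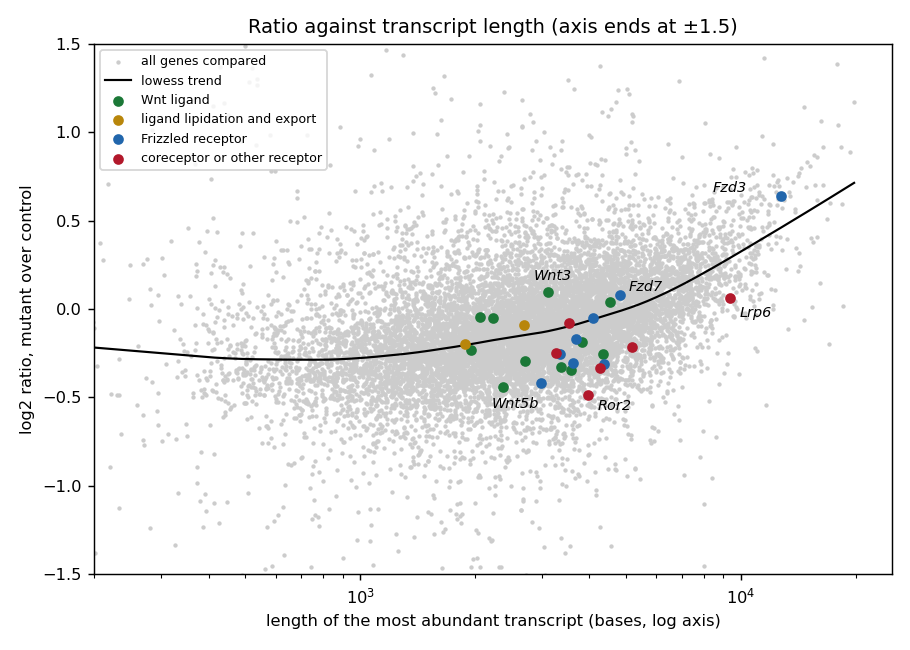
Log2 ratio, mutant over control, against the length of the most abundant transcript on a log axis, for all 12259 genes compared in grey and the 27 members in colour by role, 1 library per group. The line is the lowess trend, and the vertical axis ends at -1.5 and 1.5, so a few genes are not drawn. Fzd3 lies above the line by 0.18 and Lrp6 below it by 0.23, although both have ratios above 0.

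The ratio varied with transcript length in these libraries as a whole. The median log2 ratio was -0.20 between 1500 and 2500 bases, -0.14 between 2500 and 3500, -0.05 between 3500 and 5000, and 0.27 between 8000 and 12000. The members fell mostly in the middle of this range, with 5, 7 and 12 of the 27 in the first 3 of these classes. Against this trend Ror2 was lowest among the 27, at -0.42, followed by Fzd10 at -0.29 and Ptk7 at -0.29. Wnt3 was highest at 0.22, followed by Fzd3 at 0.18 and Wnt6 at 0.14.

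Several differences in summed FPKM sat in 1 annotated transcript. Of the members with a mean of at least 1 FPKM, 13 have several transcripts. Their FPKM-weighted mean transcript length was longer in the mutant for 9, against 49.6% of 7954 such genes. The median log2 ratio of this length over the 13 was 0.02. The Wnt5a transcript of 4354 bases was nearly equal, at 15.6 FPKM in the mutant and 15.8 in the control. The shorter one of 3731 bases stood at 2.56 FPKM in the mutant and 6.11 in the control. For Wnt5b, the transcript of 2371 bases stood at 6.42 FPKM in the mutant and 4.87 in the control, while that of 2140 bases was at 0.000655 FPKM in the mutant and 4.18 in the control. Taken by the longer transcript alone, Wnt5b had a log2 ratio of 0.34, of opposite sign to its sum, and Wnt5a had -0.02.

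The coreceptor genes had the same arrangement. The full Lrp6 transcript of 9366 bases stood at 18.8 FPKM in the mutant and 14.5 in the control, and the shorter one of 6761 bases at 0.261 FPKM in the mutant and 3.69 in the control. For Lrp5, the transcript of 5172 bases stood at 15.4 FPKM in the mutant and 14.6 in the control, and that of 2933 bases at 1.58 FPKM in the mutant and 5.38 in the control. With the most abundant transcript alone, Lrp5 had a log2 ratio of 0.07 and Lrp6 of 0.35. Porcn had -1.02, the opposite pattern, on its most abundant transcript: the transcript of 1881 bases stood at 0.460 FPKM in the mutant and 1.95 in the control. The Porcn transcript of 1863 bases, which is close to it in length, stood at 1.502 FPKM in the mutant and 0.720 in the control. The 2 Fzd6 transcripts, of 4085 and 4081 bases, were split at 1.16 and 3.98 FPKM in the mutant and at 0.000444 and 5.37 FPKM in the control. These transcripts overlap over most of their length, and FPKM assigned to them is an estimate by Cufflinks. Whether the split reflects RNA in the tissue was not tested. Exons of 5 members also overlap annotated genes on the opposite strand, by 1233 bases for Fzd5, 364 for Wnt11, 358 for Wnt5a, 324 for Wnt7b and 152 for Fzd6. Without a known strand setting the reads of such pairs cannot be told apart; AU022754, the partner of Wnt7b, stood at 0.0726 FPKM in the mutant and 0.0837 in the control.

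**Figure D4:**
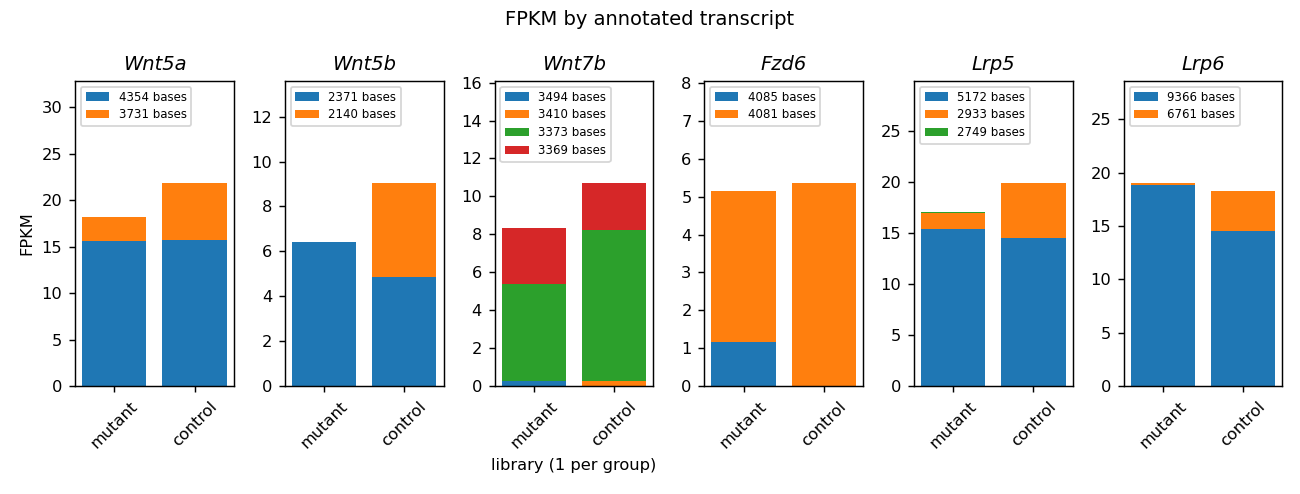
FPKM of each annotated transcript of 6 genes with several transcripts, stacked, with the mutant bar left of the control bar in each panel, 1 library per group. Colours stand for transcripts, named by their length in bases, and each panel has its own vertical scale from 0. The Wnt5b transcript of 2140 bases and the Lrp6 transcript of 6761 bases are visible in the control bar and absent or thin in the mutant bar.

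The rest of the pathway was described from lists of its other genes. Beta-catenin itself, Ctnnb1, stood at 414 FPKM in the mutant and 451 in the control. The 14 measured genes of Dishevelled and the beta-catenin destruction complex had a median log2 ratio of -0.07. Of these, 1 was at least 1.5-fold higher and 0 lower, against 2.76% and 5.57% of all genes. This gene was Apc, a scaffold of the complex with a transcript of 12449 bases, at 12.4 FPKM in the mutant and 7.95 in the control, and it had 0.14 without the length trend. The tankyrase gene Tnks (0.37), Gsk3a (-0.31) and Gsk3b (0.29) came next in log2 ratio. Of 12 nuclear effectors, 0 were past 1.5-fold in either direction, against the same shares of all genes, and the median was -0.06. The corepressor gene Tle2 had a log2 ratio of 0.55, Tle4 -0.45, Lef1 -0.42 and Pygo2 -0.40, while the most abundant, Tle3, stood at 37.0 FPKM in the mutant and 39.5 in the control.

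Of the planar cell polarity genes, 13 of 14 passed the minimum, and the median log2 ratio was -0.15. Of the 13, 0 were past 1.5-fold, against 2.76% of all genes higher and 5.57% lower. Prickle1 (-0.43), Vangl1 (-0.41), Rac1 (-0.36) and Celsr1 (0.36) had the largest log2 ratios, and Rhoa, the most abundant, stood at 144 FPKM in the mutant and 179 in the control. Celsr1, with a transcript of 11050 bases, had -0.02 without the length trend.

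Of the 18 listed secreted modulators of the ligands, 13 passed the minimum. Among these 0 were at least 1.5-fold higher and 3 at least 1.5-fold lower, against 2.76% and 5.57% of all genes. Their median log2 ratio was -0.29, and that of all 18 with no minimum -0.11. Sfrp2, a secreted Frizzled-like antagonist, stood at 17.5 FPKM in the mutant and 38.5 in the control, a ratio of 0.454 (0.419 to 0.491). The R-spondin genes Rspo3 and Rspo1, agonists that keep Frizzled at the cell surface, stood at 1.02 and 0.853 FPKM in the mutant, against 2.75 and 2.24 FPKM in the control, and Rspo1 passed the minimum only through the control. Rspo2, the most abundant R-spondin gene, stood at 25.2 FPKM in the mutant and 24.4 in the control, a ratio of 1.04 (0.972 to 1.10). The antagonist gene Dkk1 had a log2 ratio of 0.54, and the most abundant modulator, Frzb, stood at 35.001 FPKM in the mutant and 39.6 in the control.

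The 11 genes of receptor turnover and the ligand-binding matrix had a median of 0.00. Of these, 0 were at least 1.5-fold higher and 1 lower, against 2.76% and 5.57% of all genes. Of 13 feedback targets the counts were again 0 and 1, against the same shares, and the median was -0.13. The same gene, Apcdd1, which binds Wnt and Lrp5 at the membrane, was counted in both lists, at 26.7 FPKM in the mutant and 45.7 in the control. Znrf3, a ligase that removes Frizzled from the surface, had a log2 ratio of 0.57. The antagonist gene Nkd1 had -0.52, the stem cell receptor gene Lgr5 -0.51 and the cyclin gene Ccnd1, the most abundant feedback target, -0.24. Gpc3, a heparan sulfate carrier of Wnt ligands, was the most abundant, at 366 FPKM in the mutant and 428 in the control.

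**Figure D5:**
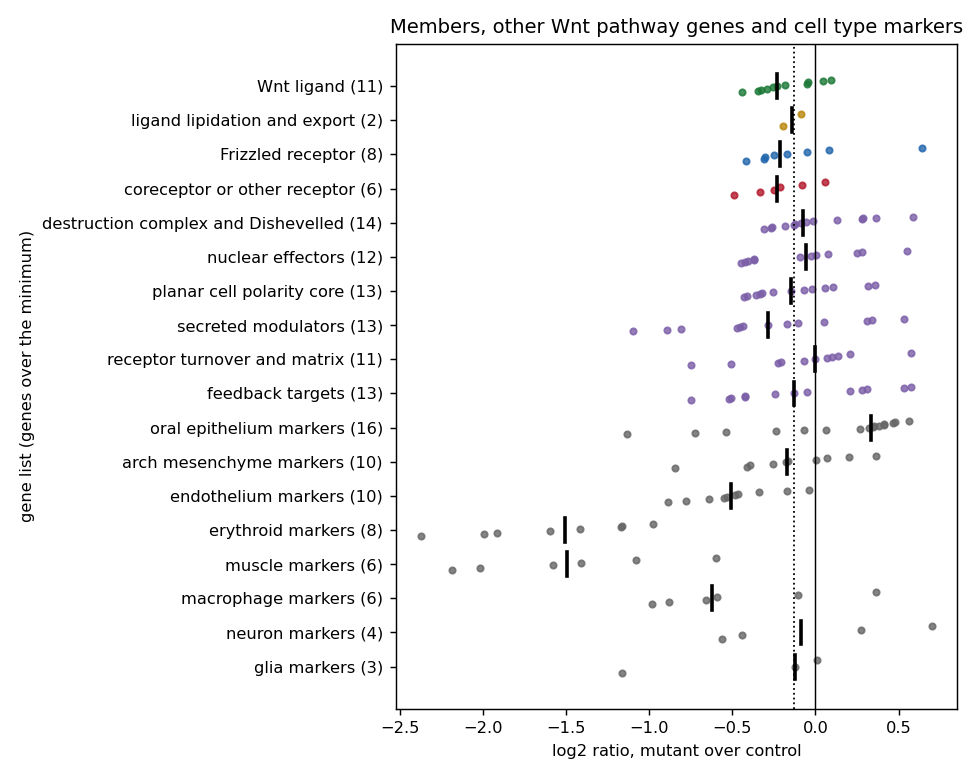
Log2 ratio, mutant over control, of each gene with a mean of at least 1 FPKM, in rows for the 4 roles of members, 6 lists of other Wnt pathway genes and 8 lists of cell type markers, 1 library per group. Points are genes, thick bars the medians, and the dotted line the median gene at -0.13. The medians of the 4 member rows lie between -0.23 and -0.14, and the erythroid and muscle marker rows lie furthest left, with medians of -1.51 and -1.496.

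Marker levels of cell types in the prominence also differed between the libraries. Of 16 oral epithelial markers, 12 lay above the median gene and 4 below it, and the 16 summed to 261 FPKM in the mutant and 232 in the control. At 1.5-fold or more, 0 of the 16 were higher and 2 lower, against 2.76% and 5.57% of all genes. These 2 were Krt15, at 6.39 FPKM in the mutant and 15.2 in the control, and Krt5, at 8.81 and 15.2. In the 8 marker lists, 0 markers were listed at 0. Of 10 arch mesenchyme markers, 6 lay below the median gene and 4 above it, and the sum was 727 FPKM in the mutant and 837 in the control. Of that sum, Vim gave 73.0 in the mutant and 132 in the control, and Twist1 137 in the mutant and 181 in the control. The 4 above the median gene were Prrx1, Msx1, Alx4 and Prrx2. Prrx1 gave 165 in the mutant and 143 in the control, and Msx1 51.7 in the mutant and 40.0 in the control. With the length trend removed, 4 of the 10 had a log2 ratio below 0 and 6 above, with a median of 0.04. Of 10 endothelial markers, 9 lay below the median gene and 1, Tek, above it, with a sum of 68.8 FPKM in the mutant and 103 in the control. The 8 erythroid markers summed to 5654 FPKM in the mutant and 22174 in the control, and the 7 muscle markers to 12.96 FPKM in the mutant and 43.2 in the control. Macrophage markers summed to 10.3 FPKM in the mutant and 16.2 in the control, and glial markers to 6.69 in the mutant and 9.54 in the control. Neuronal markers summed to 19.5 FPKM in the mutant and 18.4 in the control, of which Isl1 gave 9.62 in the mutant and 5.53 in the control, and Tubb3 6.29 in the mutant and 8.92 in the control. The part of these cell types in the differences among ligands and receptors was not tested.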

How the data were processed

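RNA was measured in 2 libraries of pooled mandibular prominences, 1 per group. The deposited tables give FPKM, estimated by the authors per transcript, and a coverage signal, per the file headers. The naming of the tables gives Cufflinks as the tool. No source used here gives its version, the aligner or the strand setting. As build, the submitters' processing notes give mm9, but 72.1% of 45475 transcripts with a shared symbol (76.8% of the 69 transcripts of members) had a start or end identical to GENCODE M21, so coordinates are given as GRCm38, 1-based.

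In 65 of 59120 lines a displaced column lost the FPKM, and these lines were left out. FPKM was summed per gene symbol over the other 59055 transcripts. The log2 ratio is log2((mutant + 1) / (control + 1)), and this pseudocount of 1 understates the difference of low genes. Genes with a mean of at least 1 FPKM were compared. Coverage times length, divided by 153 bases in the mutant and 156 in the control (the median of values between 80 and 220 bases in genes with 1 transcript over 1500 bases), gave approximate fragments. The length trend is a lowess curve (span 0.3, statsmodels 0.14.6) on the log2 length of the most abundant transcript. Intervals and trend were tested on simulated random counts with known fragment numbers. This checks the calculation only, since approximate fragments, the assignment of reads to transcripts and differences between libraries were not simulated. No p-value was computed, since 1 library per group allows no test.

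The 10 settings are the values as reported, pseudocounts of 0.1 and 5, centring on the median gene, 75th percentile scaling, TPM-like scaling with and without transcripts under 200 bases, the length trend removed, the most abundant transcript alone, and estimates with status OK only. Members and lists were chosen with earlier results of these data known. Named genes are all members and, of every other list, the 4 with the largest absolute log2 ratio and the most abundant; marker lists are given as sums. Rspo2, Krt5, Krt15, Vim, Twist1, Prrx1, Msx1, Alx4, Prrx2, Tek, Isl1 and Tubb3 were named outside this rule, after their values were seen. Of 15 symbols written down for Dishevelled and the destruction complex, 14 occurred in the tables.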

Additional observations from a re-analysis of the deposited data

How the results depend on the processing

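Scaling set the sign of the members' median log2 ratio, which was -0.21 as reported: it was -0.083 after centring on the median gene, 0.012 with TPM-like scaling without transcripts under 200 bases and 0.31 with TPM-like scaling of all transcripts. Under that last scaling the median gene stood at 0.40. The count of members at least 1.5-fold higher was 1 as reported, 0 with the length trend removed (3.58% of all genes), 0 with a pseudocount of 5 (0.857%) and 3 with TPM-like scaling (Fzd3, Fzd7 and Lrp6), under which 25.7% of all genes were past that fold. At 2-fold it was 1 with TPM-like scaling, against 4.14% of all genes. The count at least 1.5-fold lower was 0 as reported, 1 with a pseudocount of 0.1 (Wnt2b, against 8.54% of all genes) and 1 with the most abundant transcript alone (Porcn, against 7.58%; also 1 at 2-fold, against 1.84%). The number below the median gene was 17 as reported and 29 of 37 with no minimum, where the median gene stands at 0 because 11239 of 30723 genes are 0 in both libraries, so that the 29 are the members with a lower value in the mutant. The cause of the other shifts was not tested. No paired analysis was possible because each group has 1 library, and no replicate could be left out for the same reason. Depth limits the ligands with a mean under 2 FPKM, which rest on at most about 126 fragments in a library.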
